A study of Mus musculus with 9 samples.

Results

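The scavenger and mannose receptors described here are surface and lysosomal proteins with which macrophages bind and take up modified lipoproteins, bacteria, mannosylated proteins and haemoglobin. They were taken as 8 genes, Marco, Msr1, Mrc1, Olr1, Scarb1, Stab1, Cd163 and Cd68, found through their Entrez identifiers in a count table of 27179 genes. All 8 were found, and 7 passed the filter on low counts. The rule that lists them uses no measured value, but they were singled out with earlier results of these data known.

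Scavenger receptors are a functional family rather than one set of related genes. They share polyanionic and lipid ligands but come from unrelated protein families, and are grouped into lettered classes by structure. Class A receptors such as MARCO and MSR1 are collagen-like trimers, the mannose receptor carries a row of lectin domains, and other classes hold the lipoprotein receptors, the stabilins and the haemoglobin receptor. Alveolar macrophages use them to clear inhaled particles, microbes and surfactant lipid from the air spaces.

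The RNA came from alveolar macrophages that were sorted by flow cytometry from the lungs of mice aged 1 week, on a C57BL/6 background, and the series title calls these cells foetal-derived. Of 9 polyadenylated RNA libraries, 4 were wild type and 5 were labelled Suz12 cKO, a conditional knockout of the Polycomb subunit Suz12, and the series text calls them biological replicates. Details not given in the sources used here include the Cre driver, the deleted exons, the gate of the sort, the animals' sex and whether a library held 1 mouse or a pool. The p-values below therefore measure the spread between these libraries.

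Library totals ran from 13.8 to 25.3 M gene counts (M, 1e6) in wild type and from 18.6 to 45.6 M in knockout. Levels are given as counts per 1e6 of the scaled library (CPM). Suz12 (Entrez 52615, chromosome 11, positions 79993106 to 80034123 of GRCm38.p6) stood at 67.5, 76.7, 51.7 and 70.7 CPM in wild type and at 11.9, 14.7, 21.8, 13.1 and 18.5 CPM in knockout. Every knockout library was below every wild type library (log2 fold change -2.06, SE 0.18, adjusted p = 1.69e-05, edgeR quasi-likelihood test). The alveolar macrophage marker Siglecf was present in all libraries, at 411 to 494 CPM in wild type and 372 to 502 CPM in knockout. Of 15 alveolar markers 5 were called lower and 0 higher, against 11.0% and 8.97% of all tested genes. Those lower were Cd9 (4898 to 6248 against 2873 to 3322 CPM, log2 -0.86), Car4 (-0.96), Krt79 (-0.53), Fabp5 (-0.43) and Bhlhe41 (-0.39). Markers of interstitial macrophages summed to 89.2 to 133 CPM in wild type and 366 to 1901 CPM in knockout. Of its 10 tested genes 2 rose, among them the lipoprotein gene Apoe, which made up most of that sum (59.1 to 101 against 332 to 1869 CPM). Of its defining genes C1qa was low but present in all libraries, at 0.867 to 3.05 CPM in wild type and 1.23 to 5.04 CPM in knockout, and C1qb and C1qc were at 0 in 2 and 1 of the wild type libraries. Lung epithelial markers summed to 718 to 842 CPM in wild type and 389.7 to 697 CPM in knockout, nearly all of it the keratin Krt19 (703 to 816 against 378 to 658 CPM), which was the 1 of its 8 tested genes that was called lower. Their part in the results below was not tested, and in bulk RNA a change in the cells present cannot be told apart from a change in RNA per cell.

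Of the 7 tested receptor genes, Marco rose and Olr1 and Cd68 fell in the knockout at an adjusted p below 0.05. Over all 12840 tested genes 8.97% were called higher and 11.0% lower, so a few calls among 7 genes are not by themselves a result about the family. For Marco and Scarb1 the lowest knockout library lay above the highest wild type library, which held for 10.9% of tested genes. For Olr1 and Cd68 the highest knockout library lay below the lowest wild type library, which held for 9.87% of tested genes. The median log2 fold change of the 7 genes was 0.14, and that of all tested genes was 0.04. The largest difference past the threshold among them was that of Marco, and the 2 decreases were each of at most 20.0%.

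**Figure D1:**
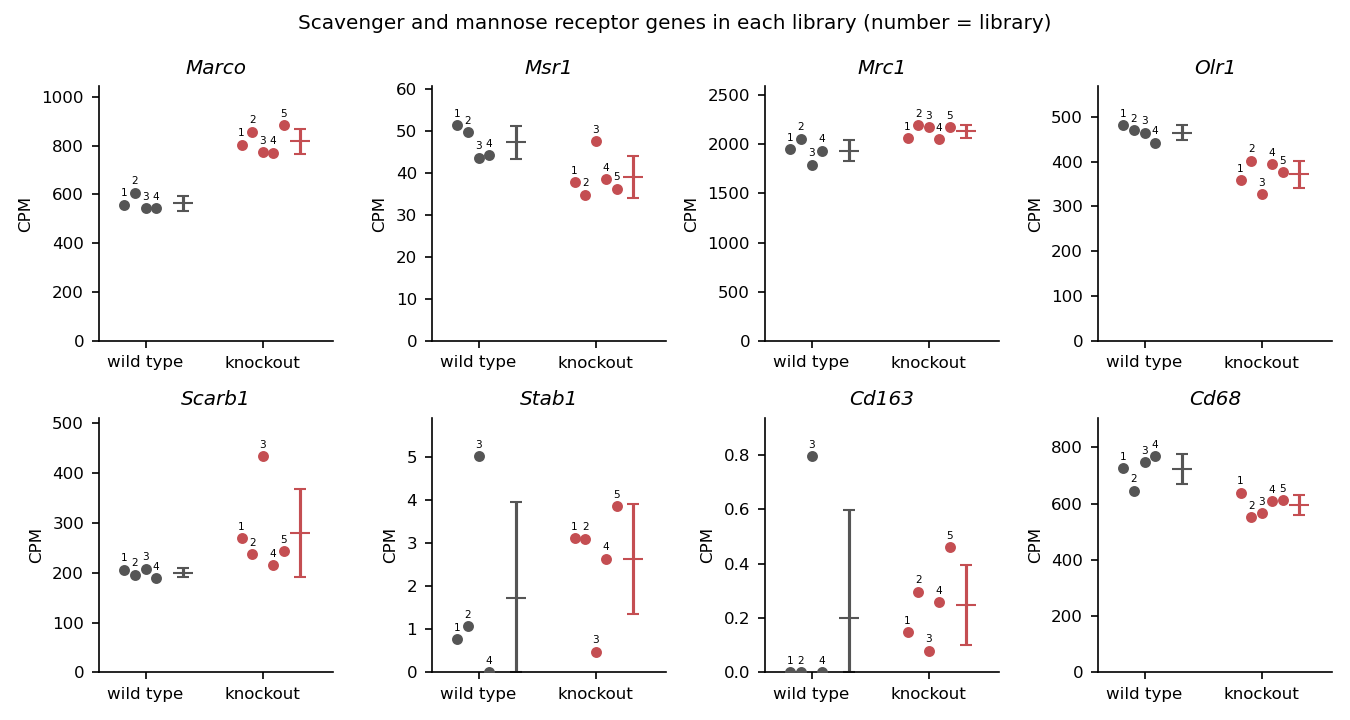
CPM of each receptor gene in 4 wild type (grey) and 5 knockout (red) libraries, each point labelled with its library number and drawn on an axis of its own that starts at 0. The bar beside each group is the mean ± SD, cut off at 0. Marco and Scarb1 do not overlap between groups and are higher in knockout, Olr1 and Cd68 do not overlap and are lower, and knockout library 3 stands at 433 CPM for Scarb1.

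The upstream sequence of the 3 genes that passed the test is shown so that the genes can be read beside their values. Each is the 250 bases before a start site in the RefSeq promoter table of GRCm38.p6, all on the minus strand, at chr1:120505025-120505274 for Marco, chr6:129507166-129507415 for Olr1 and chr11:69666171-69666420 for Cd68. The start site used for Olr1, at position 129507165, lies inside the annotated span of the gene, so 185 of the 250 bases of its window fall within that span. The windows of Marco and Cd68 lie wholly before theirs. Capitals mark the PU-box core GAGGAA, a sequence that ETS factors such as the macrophage factor encoded by Spi1 can bind, and the AP-1 site TGAGTCA. Both were searched on both strands, the marked matches do not overlap, and the motifs were chosen after the sequences had been read.
Marco: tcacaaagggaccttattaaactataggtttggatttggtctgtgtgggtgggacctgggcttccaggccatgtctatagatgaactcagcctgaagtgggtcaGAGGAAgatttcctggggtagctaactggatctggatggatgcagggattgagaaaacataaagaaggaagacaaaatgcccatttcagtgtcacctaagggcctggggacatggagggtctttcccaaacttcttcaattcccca
Olr1: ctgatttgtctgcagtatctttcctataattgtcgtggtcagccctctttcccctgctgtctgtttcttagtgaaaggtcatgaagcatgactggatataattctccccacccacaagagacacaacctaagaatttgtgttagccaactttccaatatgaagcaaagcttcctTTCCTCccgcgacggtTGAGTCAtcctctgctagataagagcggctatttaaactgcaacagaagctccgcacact
Cd68: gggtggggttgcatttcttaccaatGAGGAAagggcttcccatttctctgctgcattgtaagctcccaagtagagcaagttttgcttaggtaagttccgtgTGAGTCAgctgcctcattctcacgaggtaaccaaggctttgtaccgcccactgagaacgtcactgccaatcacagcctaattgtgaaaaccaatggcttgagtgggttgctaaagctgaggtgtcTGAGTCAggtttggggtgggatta

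The window of Marco held 1 PU-box core and no AP-1 site, that of Olr1 held 1 of each, and that of Cd68 held 1 PU-box core and 2 AP-1 sites. Windows were given for 6 of the 8 genes. A PU-box core was found in 5 of the 6, all but Cd163, and an AP-1 site in 2 of the 6. Of the 32851 windows of this length in the table, 23.3% held a PU-box core and 4.46% an AP-1 site. Because the motifs were chosen after these sequences had been read, these shares cannot show that the motifs are enriched in the receptor genes. Observed over expected CpG was 0.00 for Marco and Cd163, 0.22 for Mrc1, 0.25 for Stab1, 0.27 for Cd68 and 0.49 for Olr1. The median over all windows was 0.37. As percentiles of all windows, Marco and Cd163 stood at 7.87, Mrc1 at 32.6, Stab1 at 36.6, Cd68 at 39.2 and Olr1 at 58.7. The window of Suz12 reached 1.10. Only Olr1 was above the median of all windows. The matches are a description of letters and not of bound sites, and 3 called genes are too few to set them against the direction of change.

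The levels of the receptors can be ordered when counts are divided by gene length and scaled to sum to 1e6 in each library. On this scale the wild type libraries held Cd68 at 1168 to 1291, Mrc1 at 532 to 744, Marco at 432 to 588, Olr1 at 205 to 254, Scarb1 at 103 to 122 and Msr1 at 17.2 to 23.9. Stab1 stood at 0 to 0.987 and Cd163 at 0 to 0.279. The macrophages thus held much transcript of the lysosomal glycoprotein Cd68, of the mannose receptor and of Marco, and very little of Stab1 and Cd163. Neighbours in this order did not overlap in wild type, with the exception of Mrc1 and Marco and of Stab1 and Cd163.

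The order was the same in the knockout but for Mrc1 and Marco. Mrc1 was above Marco in 4 of 4 wild type libraries, whereas Marco was above Mrc1 in 4 of 5 knockout libraries, all but library 3. Their per-length ranges overlapped in each group, at 754 to 973 for Marco and 791 to 914 for Mrc1 in knockout. Olr1 was above Scarb1 in 4 of 4 wild type libraries and 4 of 5 knockout libraries, again all but library 3, where Scarb1 was at its highest level of 269.9. Between the groups, Olr1 (205 to 254 in wild type, 177 to 249 in knockout) overlapped on this scale. So did Msr1 (17.2 to 23.9 and 19.3 to 23.0) and Cd68 (1168 to 1291 and 1084 to 1360.1). Marco, Mrc1 and Scarb1 were higher in every knockout library than in any wild type library. So were genes with log2 fold changes near 0 in the edgeR fit. Examples were Cd36 (487 to 522 in wild type, 566 to 694 in knockout, log2 0.03) and Lamp1 (935 to 1207 and 1258 to 1373, log2 0.01). The share of all genes that separate on this scale was not computed, so the separation is not by itself a result about the receptors. All these values are levels per base, which draw on the deposited gene lengths and lack the scaling used for CPM. No test between groups was run on them.

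**Figure D2:**
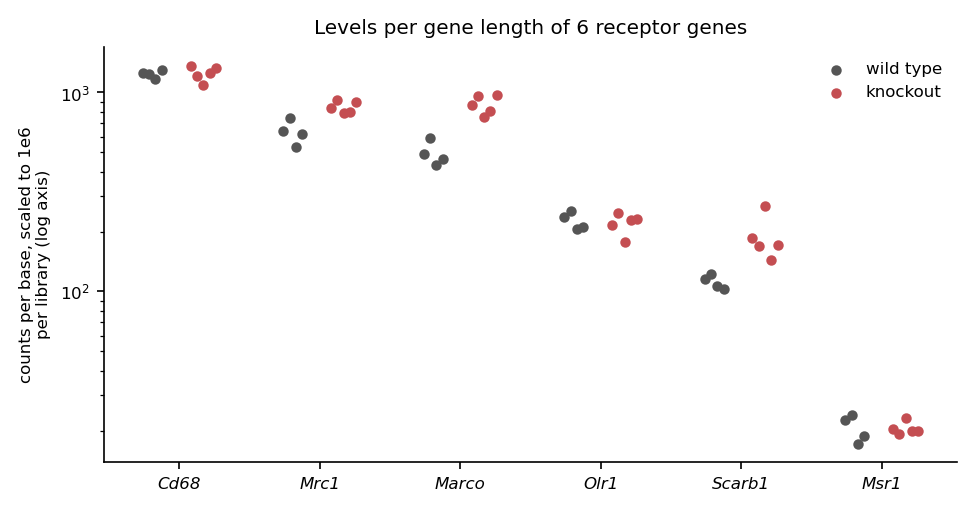
Level per gene length (counts per base, scaled to 1e6 per library, logarithmic axis) of 6 receptor genes, 1 point per library, grey for 4 wild type and red for 5 knockout libraries. Marco and Mrc1 lie side by side, with Mrc1 higher in each wild type library and Marco higher in 4 of 5 knockout libraries. Stab1 and Cd163 are left out because libraries at 0 cannot be drawn on a logarithmic axis.

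Marco and Msr1, the class A receptors among the 8 genes, did not move together. Marco (Entrez 17167, chromosome 1, positions 120474538 to 120505024), which binds bacteria and inhaled particles, stood at 558, 607, 544 and 544 CPM in wild type and at 804, 857, 774, 771 and 885 CPM in knockout. The lowest knockout library was above the highest wild type library. Its wild type mean of 563 ± 29.6 CPM (SD, n = 4) compared with 818 ± 50.9 CPM (SD, n = 5) in knockout, 1.45-fold higher (log2 0.54, SE 0.07, 95% interval 0.38 to 0.70, adjusted p = 0.000266, edgeR). Leaving out each library in turn gave log2 fold changes of 0.51 to 0.58, and a correction for gene length gave 0.56.

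Msr1 (Entrez 20288, chromosome 8, positions 39543232 to 39642750), the class A receptor for modified low-density lipoprotein, was far less abundant. It stood at 51.5, 49.8, 43.7 and 44.3 CPM in wild type and at 37.8, 34.9, 47.6, 38.6 and 36.3 CPM in knockout. Knockout library 3 lay among the wild type libraries, and the other 4 were below all of them. The log2 fold change was -0.28 (SE 0.11, 95% interval -0.52 to -0.03), which did not pass after adjustment (adjusted p = 0.107, edgeR). Without knockout library 3 it was -0.35 (adjusted p = 0.0298), and after the length correction -0.39 (adjusted p = 0.0311).

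A ratio of 2 genes within a library does not depend on how libraries are scaled, so Marco, Msr1 and Mrc1 were also compared as 3 such ratios. The ratio of Msr1 to Mrc1 follows from the other 2, so the 3 tests are not independent. The log2 ratio of Marco to Msr1 was 3.44, 3.61, 3.64 and 3.62 in wild type and 4.41, 4.62, 4.02, 4.32 and 4.60 in knockout. The groups did not overlap, and the mean was higher by 0.82 in knockout (exact two-sided permutation test, p = 0.0159, adjusted over the 3 ratios 0.0159). The log2 ratio of Marco to Mrc1 was -1.78 ± 0.05 (SD, n = 4) in wild type and -1.38 ± 0.07 (SD, n = 5) in knockout, a difference of 0.40 (exact permutation p = 0.00794, the smallest that 4 against 5 libraries can give, adjusted 0.0159). That of Msr1 to Mrc1 was -5.35 ± 0.08 (SD, n = 4) and -5.78 ± 0.18 (SD, n = 5), a difference of -0.42 (exact permutation p = 0.0159, adjusted 0.0159). Knockout macrophages thus held more Marco transcript relative to both other receptors, and less Msr1 relative to Mrc1. Knockout library 3 was the one nearest to wild type in all 3 ratios.

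**Figure D3:**
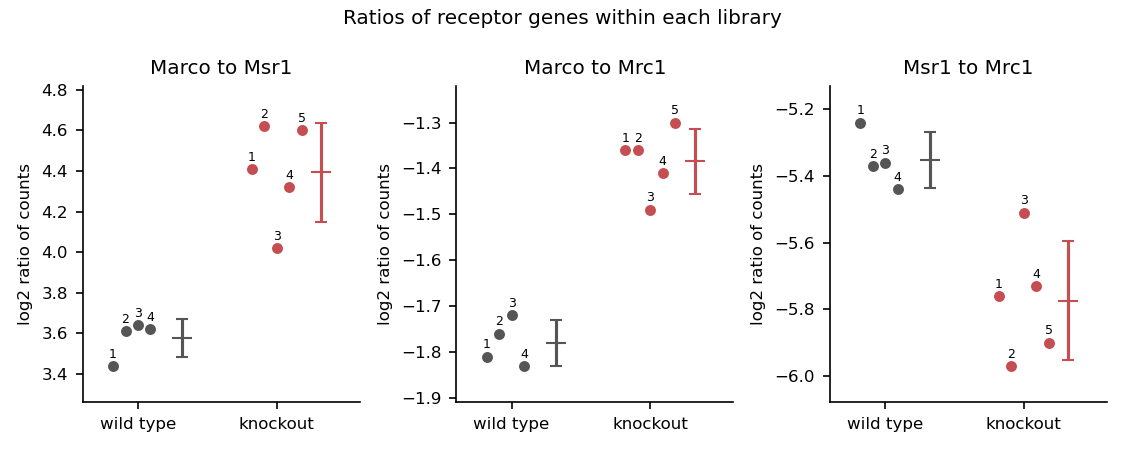
Log2 ratio of the counts of 2 receptor genes within each library, for 4 wild type (grey) and 5 knockout (red) libraries, each point labelled with its library number. The bar is the mean ± SD and the axes do not start at 0. No ratio overlaps between the groups, and knockout library 3 is the knockout library nearest to wild type in each panel.

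Mrc1 (Entrez 17533, chromosome 2, positions 14229414 to 14332023), the mannose receptor CD206, had the highest CPM of the 8 genes. It stood at 1954, 2057, 1794 and 1934 CPM in wild type and at 2059.5, 2198, 2172, 2056 and 2178 CPM in knockout. The groups met at about the same level, since knockout library 4 was below wild type library 2. The log2 fold change was 0.14 (SE 0.07, 95% interval -0.01 to 0.29, adjusted p = 0.175, edgeR), which leaves room for a difference of up to 0.29 on that scale. It was 0.25 with library totals alone (adjusted p = 0.0317) and 0.00 after the length correction (adjusted p = 0.996). The microRNA gene Mir511 lies within Mrc1 and held at most 1 count in any library.

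Olr1 (Entrez 108078, chromosome 6, positions 129479150 to 129507350) encodes a lectin-like receptor for oxidised low-density lipoprotein. It stood at 482, 470.4, 465 and 442 CPM in wild type and at 359, 402, 327, 394 and 377 CPM in knockout, so that the highest knockout library was below the lowest wild type library. Means were 465 ± 16.9 CPM (SD, n = 4) in wild type and 372 ± 30.0 CPM (SD, n = 5) in knockout, and the log2 fold change was -0.32 (SE 0.08, 95% interval -0.49 to -0.15, adjusted p = 0.01, edgeR). The call held in each of the 9 fits that left out 1 library (-0.35 to -0.27) and after the length correction (-0.42, adjusted p = 0.00178). With library totals alone it was -0.21 (adjusted p = 0.118), a scaling that moved the median of all genes from 0.04 to 0.15. On the scale per gene length the groups overlapped, at 205 to 254 in wild type and 177 to 249 in knockout. That scale lacks the scaling used for CPM and was not tested.

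Scarb1 (Entrez 20778, chromosome 5, positions 125277087 to 125341094) encodes the class B receptor for high-density lipoprotein. It stood at 206, 196, 208 and 189 CPM in wild type and at 269, 237, 433, 215 and 243 CPM in knockout. All knockout libraries were above all wild type libraries, and knockout library 3 was well above the other 4. Means were 199.6 ± 8.93 CPM (SD, n = 4) in wild type and 279 ± 87.9 CPM (SD, n = 5) in knockout, and the log2 fold change was 0.49 (SE 0.17, 95% interval 0.12 to 0.85), and the adjusted p of 0.0622 (edgeR) missed the threshold. Without knockout library 3 the log2 fold change was smaller, 0.28, but passed (adjusted p = 0.0258), and without knockout library 4 it was 0.57 (adjusted p = 0.0324). After the length correction it was 0.40 (adjusted p = 0.163).

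Stab1 (Entrez 192187, chromosome 14, positions 31139017 to 31168651), a clearance receptor of tissue macrophages and some endothelial cells, was near the limit of detection. It had 17, 27, 63 and 0 counts in wild type and 147, 115, 18, 51 and 184 in knockout, or 0.776, 1.08, 5.01 and 0 CPM against 3.11, 3.10, 0.481, 2.64 and 3.85 CPM. The highest library was wild type library 3, knockout library 3 was below 3 of the 4 wild type libraries, and the 0 in wild type library 4 allows up to 0.126 CPM. The log2 fold change of 0.66 had an SE of 0.92 and a 95% interval of -1.32 to 2.64 (adjusted p = 0.671, edgeR), so that no difference was detectable over the spread between libraries. Leaving out a library moved it from 0.24 without wild type library 4 (adjusted p = 0.855) to 2.09 without wild type library 3 (adjusted p = 0.126), and limma voom gave 2.36 (adjusted p = 0.224). The annotated span of Stab1 overlaps that of Nt5dc2, which had 26 to 85 counts in wild type and 83 to 267 in knockout, and reads there cannot be attributed to either gene because the strand setting is unknown here.

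Cd163 (Entrez 93671, chromosome 6, positions 124304636 to 124330529), the receptor for haemoglobin bound to haptoglobin, did not pass the filter. It had 0, 0, 10 and 0 counts in wild type and 7, 11, 3, 5 and 22 in knockout. Counts were found in 1 of 4 wild type libraries and in all 5 knockout libraries, but that single wild type library had the highest level, 0.795 CPM against 0.0801 to 0.46 CPM in knockout. The libraries at 0 allow up to 0.137, 0.12 and 0.126 CPM (3 counts in each, counting error only). With no filter the log2 fold change was 0.44 (SE 1.48, adjusted p = 0.858, edgeR). Among the knockout libraries, library 3 had the lowest CPM of both Stab1 and Cd163. Both are genes of other tissue macrophages, of whose 10 tested interstitial markers 2 were higher in knockout, and the part of such cells was not tested.

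Cd68 (Entrez 12514, chromosome 11, positions 69664213 to 69666170) encodes macrosialin, a heavily glycosylated protein of late endosomes and lysosomes related to the LAMP proteins and counted among the scavenger receptors. It stood at 727, 646, 747 and 768 CPM in wild type and at 639, 553, 565, 609 and 612 CPM in knockout. The groups did not overlap, although knockout library 1 came within a few CPM of wild type library 2. Means were 722 ± 53.5 CPM (SD, n = 4) in wild type and 596 ± 35.9 CPM (SD, n = 5) in knockout, and the log2 fold change was -0.28 (SE 0.08, 95% interval -0.44 to -0.11, adjusted p = 0.0213, edgeR). The call was lost without wild type library 1, 3 or 4 or knockout library 2 (adjusted p = 0.0582, 0.0522, 0.0732 and 0.0608) and with library totals alone (-0.16, adjusted p = 0.148). Cd68 is short, at 1008 counted bases, and the 506 tested genes of like length, within 10%, had a median log2 fold change of -0.24. After the length correction that of Cd68 was 0.02 (adjusted p = 0.893), while the other 6 tested receptors are of 1985 to 7995 bases, where like-length medians were 0.02 to 0.15.

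**Figure D4:**
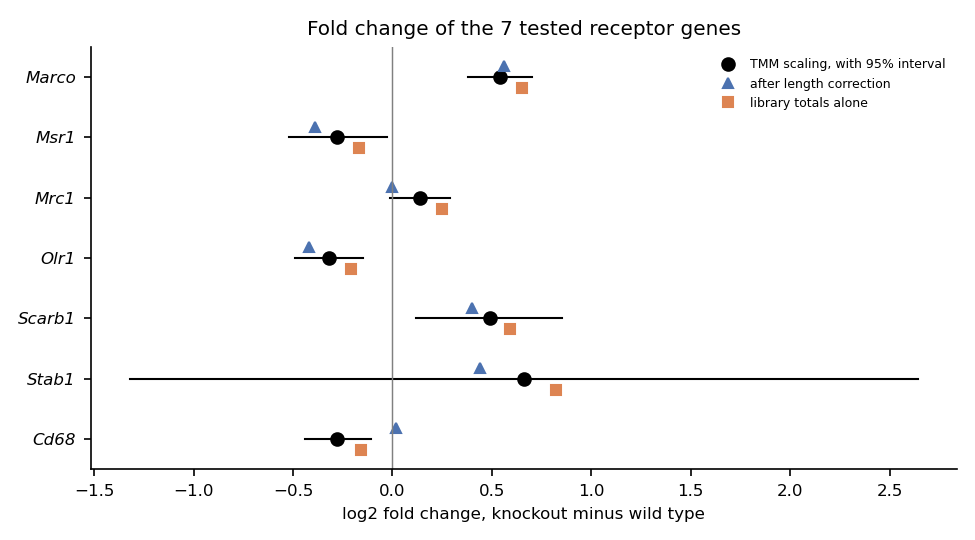
Log2 fold change, knockout minus wild type, of the 7 tested receptor genes, with circles and 95% intervals for the edgeR fit, triangles for the fit corrected for gene length and squares for library totals alone. Marco stays at 0.54 or above in all 3 fits, Olr1 stays below 0, and Cd68 moves to 0.02 after the length correction.

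The genes with the profile most like that of a called receptor were found as those with the smallest root mean square difference of centred log2 CPM over the 9 libraries, among 8795 genes. For Marco these were Lpl, a lipoprotein lipase, at 0.059, Parp1, a DNA repair enzyme, at 0.060, and Picalm, a clathrin assembly adaptor, at 0.070. Their log2 fold changes were 0.60, 0.50 and 0.58. For Olr1 they included Lnpep and Snx3, each at 0.071, with log2 fold changes of -0.26 and -0.24, of which that of Lnpep did not pass (adjusted p = 0.0512, edgeR). For Cd68 they were Tmbim1 at 0.052, Sec22b at 0.060 and Tmem101 at 0.067, with log2 fold changes of -0.26, -0.30 and -0.29, of which that of Tmem101 did not pass (adjusted p = 0.224, edgeR). Of the genes that passed, Snx3 lost its call in 7 of the 9 fits that left out 1 library (all but wild type 2 and knockout 4), Tmbim1 in 6 (wild type 1, 3 or 4, knockout 2, 4 or 5) and Sec22b in 4 (wild type 1 or 4, knockout 1 or 2). With library totals alone Snx3 (-0.12, adjusted p = 0.327), Tmbim1 (-0.15, adjusted p = 0.224) and Sec22b (-0.18, adjusted p = 0.141) also lost theirs, and Snx3 was at -0.08 after the length correction (adjusted p = 0.534). All these profiles come from the same 9 libraries in 2 groups, so fold changes close to that of the receptor follow from how the genes were picked.

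Other receptors of these families were mostly low or not called. Of 22 genes, 12 were tested, of which 3 fell and the other 9 did not pass, with a median log2 fold change of 0.00. Over all tested genes 8.97% were called higher and 11.0% lower, with a median of 0.04. The few calls in this list and in the lists that follow are therefore not by themselves results about those lists. The endocytic receptor Lrp1 was at 1911 to 2378 CPM in wild type and 1577 to 1875 CPM in knockout (log2 -0.30, SE 0.08, adjusted p = 0.0169, edgeR). The hyaluronan receptor Cd44 (-0.28) and the beta-glucan receptor Clec7a (-0.32) also fell, with groups that overlapped. The fatty acid and lipid receptor Cd36 differed little, at 1004 to 1214 and 1004 to 1409 CPM (log2 0.03, SE 0.10, adjusted p = 0.887, edgeR). The call of Lrp1 was lost in 2 of the 9 fits that left out 1 library (wild type 1 or 4), that of Cd44 in 5 (wild type 1, 2 or 4, knockout 2 or 5) and that of Clec7a in 7 (all but wild type 2 and knockout 4).

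Among genes that handle haemoglobin and haem, 2 of 9 tested rose and 1 fell, against 8.97% and 11.0% of all tested genes. The median log2 fold change was 0.10. Hmox1, the haem oxygenase that opens the haem ring, stood at 118, 120.5, 103 and 132 CPM in wild type and at 459, 303, 182, 431 and 595 CPM in knockout. No library overlapped, and the lowest knockout value was in library 3 (log2 1.73, SE 0.31, adjusted p = 0.00485, edgeR). The iron exporter Slc40a1 stood at 7.62 to 9.82 CPM in wild type and 17.5 to 30.3 CPM in knockout (log2 1.38, SE 0.18, adjusted p = 0.000192, edgeR). Both calls held in all 9 fits that left out 1 library. The biliverdin reductase Blvrb fell by 0.42 on the log2 scale (adjusted p = 0.0198, edgeR). It was at -0.07 after the length correction (adjusted p = 0.665), and its call was also lost without wild type 3 or 4 or knockout 2 or 5.

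Among genes that handle cholesterol after lipoprotein uptake, 1 of 12 tested rose and 2 fell, against 8.97% and 11.0% of all tested genes. The median log2 fold change was 0.03. The cholesterol exporter Abca1 was at 39.0 to 58.2 CPM in wild type and 82.3 to 115 CPM in knockout, with no overlap (log2 1.11, SE 0.13, adjusted p = 0.000122, edgeR). Nr1h3, the sterol-sensing nuclear receptor LXR alpha (-0.39, adjusted p = 0.0318), and the cholesterol esterifying enzyme Soat1 (-0.29, adjusted p = 0.0368) fell. Their calls were lost in 7 and 6 of the 9 fits that left out 1 library, Nr1h3 in all but those without wild type 3 or knockout 3 and Soat1 in all but those without wild type 2 or knockout 4 or 5. The call of Abca1 held in all 9.

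Of the endocytic coat and adaptor genes, 2 of 16 tested rose and 1 fell, against 8.97% and 11.0% of all tested genes. The median log2 fold change was 0.08. Picalm stood at 257 to 282 CPM in wild type and 379 to 424 CPM in knockout (log2 0.58, SE 0.07, adjusted p = 0.000138, edgeR), with no overlap and the same call in all 9 fits that left out 1 library. The clathrin adaptor partner Eps15 rose (0.28, adjusted p = 0.0432) and the clathrin light chain Clta fell (-0.30, adjusted p = 0.014). Neither was called after the length correction (0.14, adjusted p = 0.329, and -0.07, adjusted p = 0.45). Eps15 also lost its call without wild type 2 or 4 or knockout 1, 2, 4 or 5, and Clta without wild type 4.

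In the family of Cd68 and the lysosome membrane, 1 of 7 tested genes rose and 1 fell, against 8.97% and 11.0% of all tested genes. The median log2 fold change was -0.08. Lamp2 was at 577 to 668 CPM in wild type and 438 to 506 CPM in knockout (log2 -0.40, SE 0.07, adjusted p = 0.00181, edgeR). Cd63, a tetraspanin of late endosomes, was at 50.3 to 76.4 CPM and 104 to 253 CPM (log2 1.20, SE 0.29, adjusted p = 0.0186, edgeR). Neither gene overlapped between groups, and both calls held in all 9 fits that left out 1 library and after the length correction (-0.52 and 1.47). Lamp1, the closest relative of Lamp2, did not pass, at 1337 to 1433 and 1283 to 1569 CPM (log2 0.01, adjusted p = 0.95).

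Of 13 transcription factors known to act on receptor genes, 3 rose and 1 fell, against 8.97% and 11.0% of all tested genes. The median log2 fold change was 0.21, and that of all tested genes was 0.04. The haem-sensing repressor Bach1 (0.34, adjusted p = 0.0304) and the stress factor Nfe2l2 (0.28, adjusted p = 0.0412) were among those that rose, and Cebpa, a myeloid factor, fell (-0.32, adjusted p = 0.0357). Spi1, at 461 to 514 and 478 to 616 CPM, and Pparg, at 223 to 245 and 255 to 286 CPM, did not pass (adjusted p = 0.376 and 0.0566). The calls of Bach1, Nfe2l2 and Cebpa were lost in 4, 7 and 5 of the 9 fits that left out 1 library, Bach1 without wild type 1 or knockout 1, 2 or 5, Nfe2l2 in all but those without wild type 2 or knockout 3, and Cebpa without wild type 2 or 4 or knockout 2, 4 or 5. With library totals alone, the scaling that raised the median of all genes, the calls of the decreases of Lrp1, Cd44, Clec7a, Blvrb, Nr1h3, Soat1, Clta and Cebpa were lost, and that of Lamp2 was kept. Bach1 and Nfe2l2 were also not called after the length correction (0.19, adjusted p = 0.116, and 0.25, adjusted p = 0.0661).

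**Figure D5:**
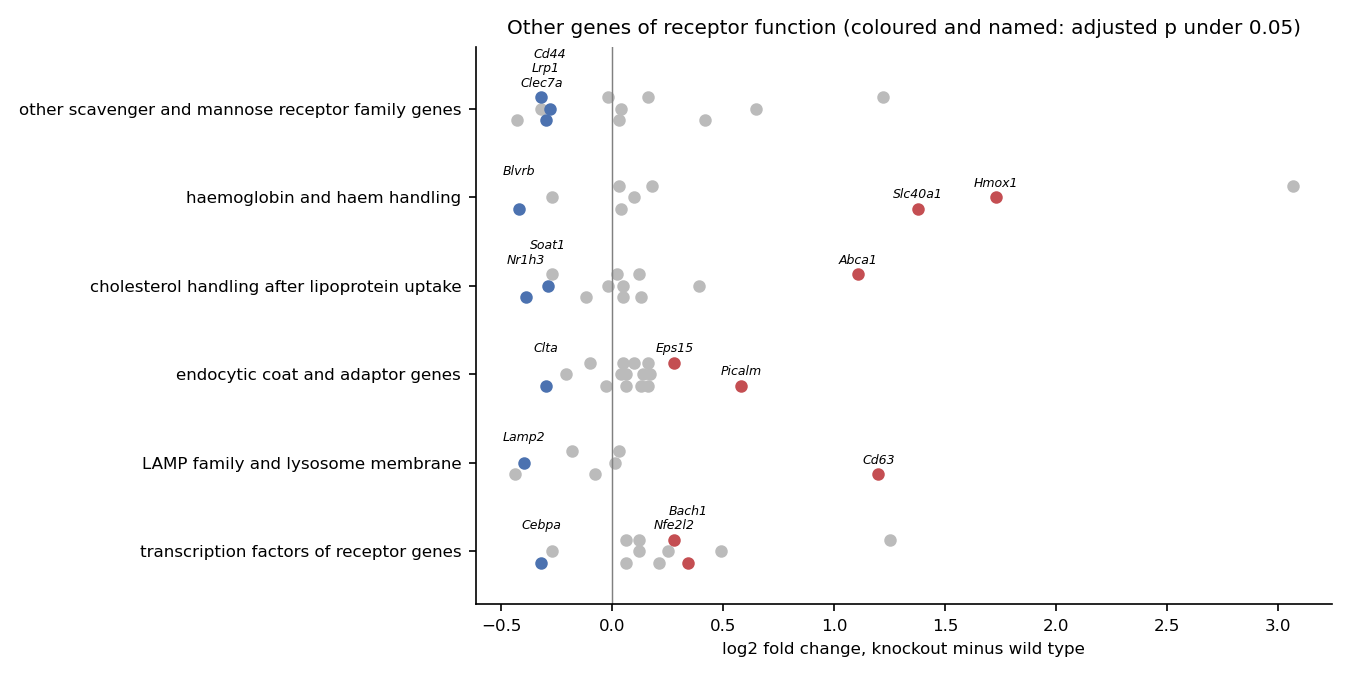
Log2 fold change, knockout minus wild type, of tested genes in 6 lists of genes around receptor function, 1 point per gene, with a vertical line at 0 and 1 transcription factor left out. Genes with an adjusted p under 0.05 (edgeR) are named and coloured, red for higher and blue for lower. Grey genes did not pass, including Hp at the far right, whose adjusted p was 0.0877.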

How the data were processed

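Gene counts, deposited by the authors as whole numbers beside Entrez identifiers and gene lengths in bases (per the file headers), covered all 9 libraries. The 9 tables of single libraries held the same counts. They were made with featureCounts on mm10, per the submitters' processing notes. The series text gives single reads of 85 bases, 19 to 56 M (1e6) per sample. Aligner, versions, annotation and strandedness were not given in the sources used here. Symbols, coordinates and upstream sequences came from RefSeq tables of GRCm38.p6, which named 25275 of the 27179 identifiers, and the other 1904 stayed in library sizes and tests.

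Counts were tested in R 4.3.3 with edgeR 4.0.16 (TMM scaling, filterByExpr by group, robust quasi-likelihood fit, no covariate, all 9 libraries), with Benjamini-Hochberg adjustment over 12840 genes and a threshold of 0.05. The script was tested on simulated data. Fold changes are given on the log2 scale as knockout minus wild type, and the SE comes from the test statistic. Log2 CPM used a prior count of 2. The receptor genes, gene lists and markers were chosen with earlier results of these data known. The named genes are the 8 receptors, Suz12, up to 4 called genes of each list by adjusted p, and the 3 genes nearest in profile to each called receptor whose log2 CPM averaged at least 3. Cd36, Lamp1, Spi1, Pparg and Hp, the markers and the overlapping genes were named after their values were seen. A few genes meeting this rule are not reported here.

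Alternatives were library totals alone, DESeq2 1.42.0, limma 3.58.1 voom, no filter, a stricter filter (1 CPM in 4 libraries), a correction for gene length, counts thinned to the smallest library, an Xist term (above 10 CPM in 3 of 4 wild type and 2 of 5 knockout libraries), the replicate number as a block, and each library left out. For the length correction, deviations of log2 CPM in a library were smoothed against log2 length by loess (span 0.5) and the curve used as an offset. It was fitted robustly after a plain fit had shifted all genes.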

Additional observations from a re-analysis of the deposited data

Results flagged for a closer look

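Of 70 groups of libraries examined for the named genes, 5 held a library far from the rest of its group, and chance alone marks about 1 in 20 groups. Scarb1 was at 433 CPM in knockout library 3 and at 215 to 269 CPM in the other knockout libraries. Cd63 was at 253 CPM in the same library and at 104 to 120.2 CPM in the others. Cd163 was at 0.795 CPM in wild type library 3 and at 0 in the other wild type libraries. Lpl was at 2084 CPM in wild type library 2 and at 1686 to 1728 CPM in the others. Tmbim1 was at 379.8 CPM in knockout library 1 and at 311 to 329.9 CPM in the others.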

How the results depend on the processing

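Marco kept its direction and call under every alternative run, and Olr1 under all but library totals alone (-0.21, adjusted p = 0.118). With library totals alone 1966 genes were higher over the whole table (66.0% of calls against 45.0%), and 3 receptors were higher and 0 lower: Mrc1 was 0.25, Scarb1 0.59 and Cd68 -0.16. Scarb1 passed the threshold with DESeq2 (0.48), which gave 2 receptors higher, but not with the Xist term (0.41, adjusted p = 0.161, edgeR). With knockout library 3 and wild type library 3 both left out, chosen after seeing the data, 2 receptors were higher, with Msr1 at -0.39, Scarb1 at 0.30 and Cd68 at -0.23. The length correction gave Msr1 -0.39 and Cd68 0.02, so that the 2 receptors called lower were Msr1 and Olr1 in place of Olr1 and Cd68. With no filter 1310 genes were higher and 1277 lower.

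Leaving out each library in turn gave 1 to 2 receptors higher and 1 to 3 lower, with log2 fold changes of -0.35 to -0.22 for Msr1, 0.28 to 0.57 for Scarb1 and -0.32 to -0.24 for Cd68. Over all genes it gave 772 to 1434 higher and 1074 to 1521 lower. Where a call changed the cause was not tested, apart from the library left out.

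The labels do not say whether shared replicate numbers pair the libraries. In deviations from group means, same-numbered libraries correlated at 0.036, 0.032, -0.057 and 0.115, and 1 of 4 wild type libraries correlated best with its own number. With no reference to set them against, these values cannot decide whether libraries were paired. The replicate block gave 749 genes higher and 1103 lower, and 2 receptors higher, with Scarb1 at 0.48. In the 4 pairs the differences of the ratios were 0.77 for Marco to Msr1, 0.38 for Marco to Mrc1 and -0.39 for Msr1 to Mrc1, at p = 0.125 (exact permutation), the smallest that 4 pairs allow. The low counts of Cd163 kept it below the filter, and Stab1 stood at 0.64 (adjusted p = 0.649) with libraries thinned to equal depth.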
